A study of Mus musculus with 8 samples.

Results

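Macrophages find sites of infection and injury through cell surface receptors for chemokines and for fragments of complement. Peaks of RNA methylation were read here on 9 genes for such receptors, *Ccr1*, *Ccr2*, *Ccr3*, *Ccrl2*, *Cx3cr1*, *Cxcr4*, *Cmklr1*, *C5ar1* and *C3ar1*, out of 21866 protein-coding genes of GENCODE M21. The 9 genes were chosen by name and by a coding sequence (CDS) that lies mostly in a single exon. This rule uses no peak value, but it was set with earlier results of these data known. Between 98.1% and 100% of the CDS of each gene lay in one exon. BMDMs (bone marrow-derived macrophages) were grown from 8-week-old C57BL/6 mice for 7 days with 40 ng/mL M-CSF, the growth factor that turns marrow cells into macrophages. Marrow came from 2 WT mice (Mettl3 fl/fl Lyz2 +/+) and 2 KO mice (Mettl3 fl/fl Lyz2 cre/+). All of them carried the floxed *Mettl3* alleles, and the KO mice also carried Cre under the *Lyz2* promoter, which is active in myeloid cells and leaves part of the *Mettl3* mRNA in such cultures. MeRIP-Seq libraries were made from the antibody pull-down (IP) and from the input RNA of each mouse, 8 libraries in all, and 1 peak list per mouse was deposited (WT-1 and WT-2, KO-1 and KO-2).

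N6-methyladenosine (m6A) is a methyl mark on adenosines inside mRNA, placed by an enzyme complex whose catalytic subunit is METTL3, most often within short motifs such as GGAC. In MeRIP-Seq, RNA fragments bound by an antibody against m6A are sequenced beside the input, and stretches with more reads in the IP are called as peaks. Chemokine receptors and the complement receptors C5aR1 and C3aR are G protein-coupled receptors that thread the membrane repeatedly. On binding a ligand they signal mostly through Gi proteins to PI3 kinase and Rac, which drive cell movement.

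The lists held between 6159 and 6684 peaks, of which between 5991 and 6484 lay on an exon of a protein-coding gene on the same strand. Their median width was 478 bp (WT-1), 498 bp (WT-2), 501 bp (KO-1) and 543 bp (KO-2). The share of peaks at a score of 3100 or more, where the caller's scores pile up, was 10.3%, 13.5%, 16.2% and 19.5% in the same order, so the KO lists held wider peaks and more top scores as a whole. No read counts came with the lists, so depth is unknown and the absence of a peak does not show that a gene was silent. *Mettl3* had no peak in any list, so the deleted gene gave no check of the genotypes. Of 8 macrophage marker genes, *Mertk* had a peak in all 4 lists, *Mrc1* in WT-1 and KO-2 and *Fcgr1* in both WT lists, while *Adgre1*, *Csf1r*, *Itgam*, *Cd68* and *Lyz2* had none. Of 20 markers of granulocytes, T cells, B cells, dendritic cells, mast cells and eosinophils, *Cd4* alone had a peak, in both WT lists. In such bulk samples, fewer cells of a type and less RNA per cell cannot be told apart.

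A short coding sequence that 5 of the 9 receptor genes share is shown first. It holds a GGAC that is under a peak in some of these genes and under none in others. The motif is a run of 4 codons in frame, TGG, ACN, CCN and TAN with N for any base, of which the first encodes tryptophan and the third proline. A conserved tryptophan and proline in the sixth transmembrane helix are a known mark of this receptor class. The motif was chosen after the sequences had been seen, so its counts are a description. It was found in the coding sequence of 5 of the 9 genes, of 5 of 28 other chemoattractant receptors (17.9%) and of 33 of all 21866 genes (0.151%). Each line below gives the gene, the GRCm38 position, the strand and, after the colon, 24 bases of the coding exon in the 5′ to 3′ direction of the mRNA, with the motif in capitals.
*Ccr1*, chr9:123963721-123963744, minus strand: ctcctcTGGACCCCCTACaatctg
*Ccr2*, chr9:124106483-124106506, plus strand: ctcttcTGGACTCCATACaatatt
*Ccr3*, chr9:124029389-124029412, plus strand: atttttTGGACCCCGTACaacctg
*Cx3cr1*, chr9:120051585-120051608, minus strand: ctcttcTGGACACCATACaacatc
*C3ar1*, chr6:122850093-122850116, minus strand: atctgcTGGACTCCATACcatctt
The tryptophan codon was codon 252 in *Ccr1*, 269 in *Ccr2*, 256 in *Ccr3*, 245 in *Cx3cr1* and 383 in *C3ar1*. Between 288 and 333 bases lay from there to the end of the CDS. The window was under a peak in all 4 lists in *Ccr2* and *C3ar1*, in WT-2 alone in *Cx3cr1*, and in no list in *Ccr1* and *Ccr3*. Nearly the same letters thus stood inside a peak in some receptor genes and outside any peak in others.

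A peak was found in at least 1 list on 6 of the 9 genes, beside 32.3% of all protein-coding genes and 19.3% of the 4031 genes with at least 90% of the CDS in one exon. The lists hold no counts, so no set could be limited to expressed genes. The part of expression in these shares was not tested. Because the 9 genes were chosen with earlier results of these data known, their counts beside these shares are a description. *Ccr1*, *Ccr2*, *Cx3cr1*, *Cmklr1* and *C3ar1* had a peak in all 4 lists, 5 of 6, beside 30.4% of the 7052 genes with a peak in any list. *Ccrl2* had a peak in WT-2, KO-1 and KO-2. *Ccr3*, the eotaxin receptor of eosinophils, *Cxcr4*, the CXCL12 receptor that holds cells in the marrow, and *C5ar1*, the receptor for complement C5a, had none in any list. The 6 genes carried 26 peaks, 5 in WT-1 and 8 in WT-2, compared with 6 in KO-1 and 7 in KO-2. Of these, 16 touched the CDS, 10 held the start codon and 12 the stop codon, while 5 lay only in the 5′-UTR and 5 only in the 3′-UTR. The peaks were 309 to 2587 bp wide with a median of 889.5 bp, and 8 of 26 were wider than 95% of the peaks of their list. These 8 all lay on *Cmklr1* and *C3ar1*.

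**Figure D1:**
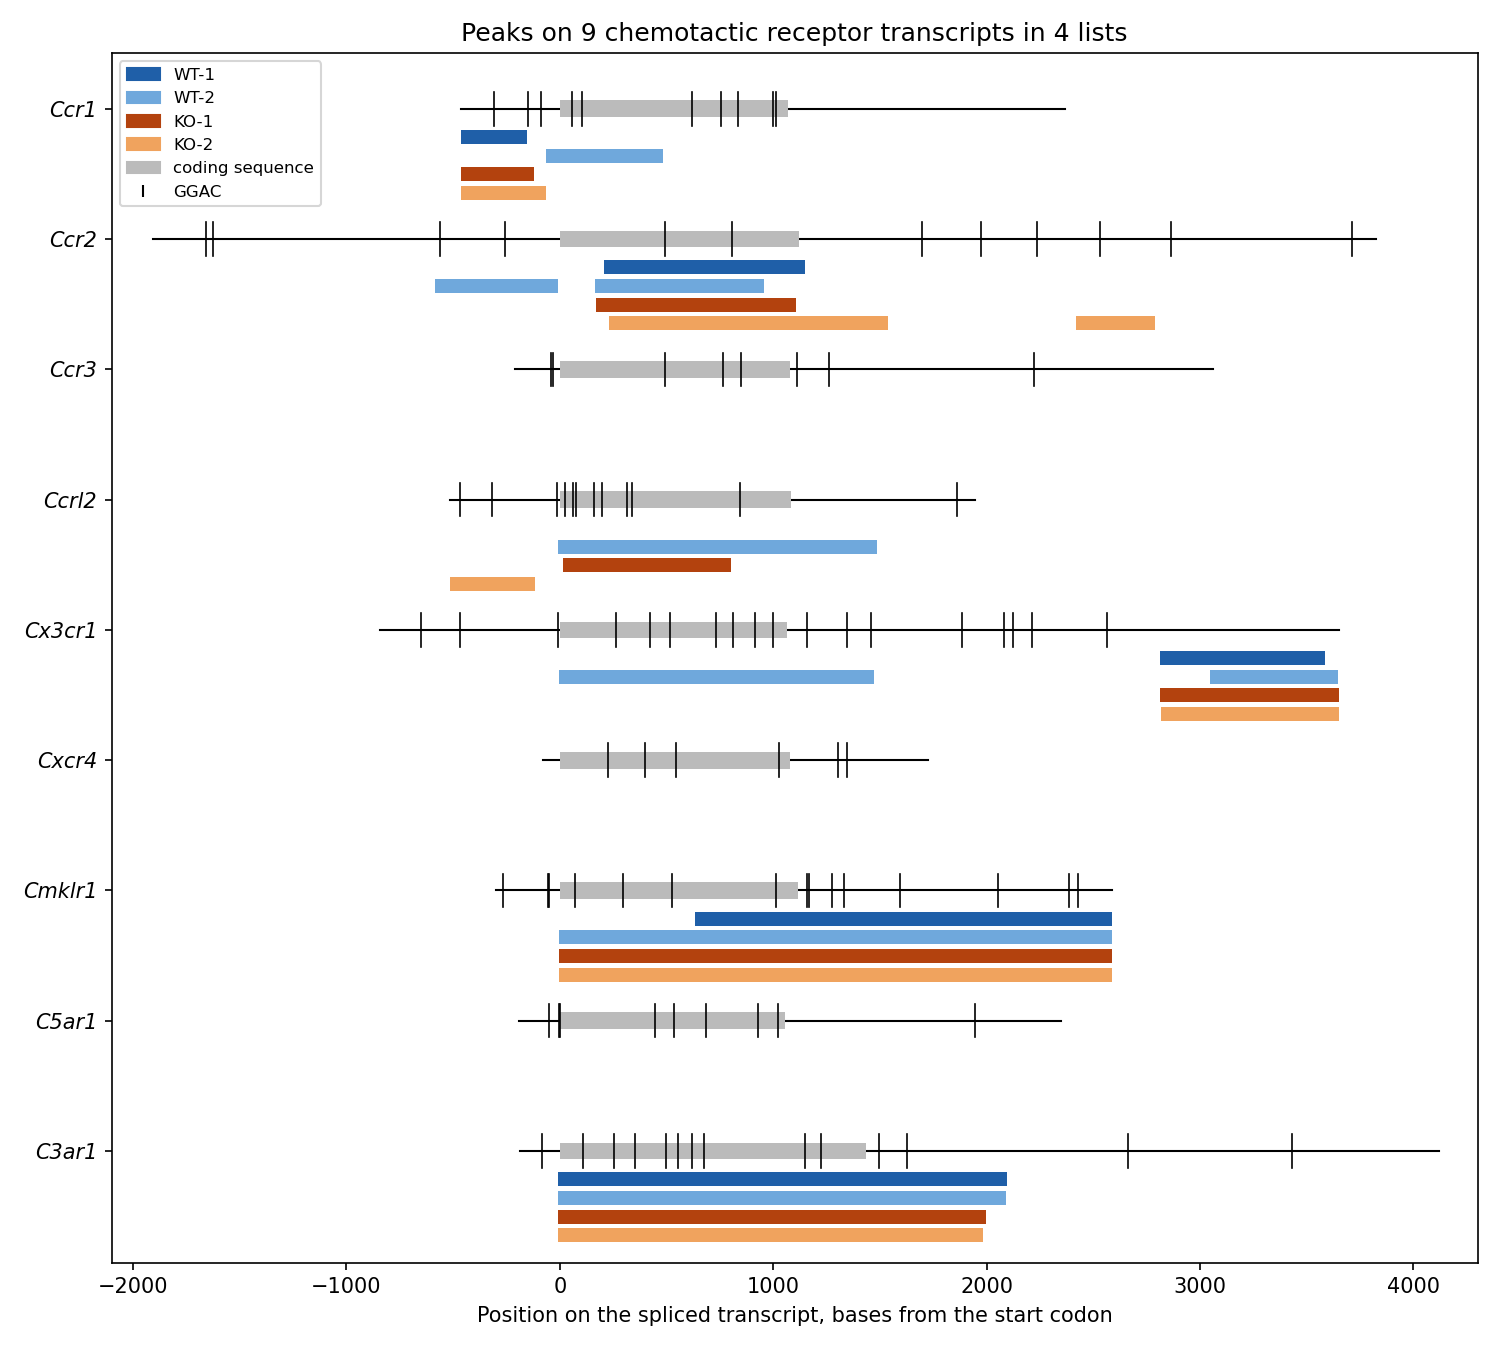
Each thin black line is the spliced mRNA of a receptor gene, with the horizontal axis in bases from the first base of the start codon, the grey box the coding sequence, the ticks GGAC, and the coloured bars the peaks of both WT and both KO lists. The bars cover the whole coding sequence of *C3ar1* in all 4 lists, lie at the 3′ end of the mRNA of *Cx3cr1* in all 4 lists, and are missing on *Ccr3*, *Cxcr4* and *C5ar1*.

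*C3ar1*, the receptor for the complement fragment C3a, carried the most even peak. Its gene lies on the minus strand of chr6:122847138-122856161 and has 2 exons, with the whole CDS of 1434 bp in exon 2. The peak ran over chr6:122849161-122851264 in WT-1, 2104 bp, and was 2099 bp wide in WT-2. In the KO lists it was 2005 bp (KO-1) and 1993 bp (KO-2) wide. In every list it began at the first base of exon 2, 8 bases before the start codon, and covered 100% of the CDS. It ended 662, 657, 563 and 551 bases after the stop codon, so both KO peaks stopped closer to the stop codon than both WT peaks. How often peak ends are separated by genotype in this way over all genes was not tested. The score was 3100 in all 4 lists, so the scores could not rank them. The 1993 bases under a peak in all 4 lists held 11 GGAC, a number reached by 29.8% of 23013 windows of the same length tiled over the mRNAs of all genes. The first of them in the CDS and the one farthest from the start codon, in the 3′-UTR, are shown with GGAC in capitals.
*C3ar1*, CDS, chr6:122851135-122851158, minus strand: ttgtctattgGGACtgctaggcaa
*C3ar1*, 3′-UTR, chr6:122849616-122849639, minus strand: ctggcccatgGGACcagtgtttta

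*Cmklr1*, the signalling receptor for the attractant chemerin, carried the widest peaks in WT-2, KO-1 and KO-2, while in WT-1 the peak of *C3ar1* was wider. The gene lies on the minus strand of chr5:113612354-113650426, with the CDS of 1116 bp in exon 3 of 3. In WT-2, KO-1 and KO-2 the peak covered this exon from end to end, chr5:113612354-113614940, 2587 bp. In WT-1 it covered chr5:113612354-113614303, 1950 bp, and left out the first part of the CDS. The share of the CDS under a peak was 43.1% in WT-1 and 100% in the other 3 lists, so WT-1 alone stood apart and the genotypes overlapped. The score was 1445.57 in WT-1 and 3100 in WT-2, compared with 3100 in KO-1 and 2711.98 in KO-2. Only 1 of 3 coding transcripts in the annotation holds the full peak in an exon. The stretch common to all 4 lists held 9 GGAC, of which 8 lay in the 3′-UTR. The GGAC in the CDS of that stretch and the pair just after the stop codon are shown.
*Cmklr1*, CDS, chr5:113613912-113613935, minus strand: ccctgagtgaGGACacaggcccct
*Cmklr1*, 3′-UTR, chr5:113613769-113613792, minus strand: cacggcccagGGACgcctagggac
*Cmklr1*, 3′-UTR, chr5:113613759-113613782, minus strand: ggacgcctagGGACttgtctccgg
The windows of this pair overlap, with the motifs starting 41 and 51 bases after the stop codon.

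*Ccrl2* encodes an atypical receptor that binds chemerin without signalling and presents it to cells with CMKLR1. Unlike *Cmklr1*, it had no peak position shared by all lists. Its gene lies on the minus strand of chr9:111054486-111057519, with the CDS of 1083 bp in exon 2 of 2. WT-1 had no peak. WT-2 had one of 1495 bp over chr9:111054945-111056439, which held the start and the stop codon. KO-1 had one of 787 bp over chr9:111055625-111056411, inside the CDS. KO-2 had one of 400 bp over chr9:111056871-111057270, in the 5′-UTR, with a score of 50.72 near the lowest score of that list. The CDS was thus covered at 0% in WT-1 and 100% in WT-2, compared with 72.7% in KO-1 and 0% in KO-2, and the lists of one genotype differed as much as those of different genotypes. The 787 bases of CDS common to WT-2 and KO-1 held 7 GGAC, or 8.89 per kb, a number reached by 8.97% of 75291 windows of that length. The GGAC followed by T among them are shown.
*Ccrl2*, CDS, chr9:111056217-111056240, minus strand: gaaatacaaaGGACtcaagaatct
*Ccrl2*, CDS, chr9:111056079-111056102, minus strand: agttcttgtcGGACtccactcctc

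*Ccr2*, the receptor for CCL2 that calls inflammatory monocytes out of the marrow, had a coding peak in all 4 lists. The gene lies on the plus strand of chr9:124101950-124113557, with the CDS of 1122 bp in exon 2 of 2 of its longest coding transcript. The coding peak was 944 bp wide in WT-1 and 789 bp in WT-2, compared with 938 bp in KO-1 and 1309 bp in KO-2. It reached past the stop codon in WT-1 and KO-2 and ended before it in WT-2 and KO-1. The share of the CDS under a peak was 81.6% in WT-1 and 70.3% in WT-2, compared with 83.6% in KO-1 and 79.5% in KO-2. The WT lists lay on both sides of KO-2, and the KO mean of 81.6% ± 2.90 (SD, n = 2) could not be told from the WT mean of 75.9% ± 7.94 (SD, n = 2; two-sided exact permutation test, p = 0.667). WT-2 had a second peak of 572 bp in the 5′-UTR, within an exon of 1 of 4 coding transcripts, and KO-2 a second peak of 370 bp in the 3′-UTR. All 4 coding peaks shared chr9:124105915-124106640, 726 bp of CDS from base 230 to base 955 after the first base of the start codon. This stretch held 2 GGAC, one in the window shown above and the following one.
*Ccr2*, CDS, chr9:124106168-124106191, plus strand: ttaaaagccaGGACagttaccttt

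*Ccr2* is uncertain in one respect. Of the 5679 stretches of 50 bases in its mRNA, 129 (2.27%) occurred also in other protein-coding genes, some of them within its CDS. Reads from such stretches could have come from either gene, and how the aligner placed them was not tested. No stretch of 50 bases in the CDS of the other 8 genes was found in another gene. No peak on the opposite strand and no overlapping gene was found on any of the 9 genes.

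*Cx3cr1*, the receptor for fractalkine on patrolling monocytes and tissue macrophages, had its recurrent peak far from the CDS. The gene lies on the minus strand of chr9:119901616-120069879, with the CDS of 1065 bp in exon 3 of 3. The recurrent peak covered chr9:120048751-120049524 in WT-1, 774 bp, chr9:120048691-120049288 in WT-2, 598 bp, and chr9:120048683-120049523 in KO-1, 841 bp. In KO-2 it covered 837 bp. It lay in the last part of the 3′-UTR, from 1746 bases after the stop codon to base 2587, the annotated end. Its score was 206.54 in WT-1 and 420.07 in WT-2, compared with 1379.47 in KO-1 and 474.66 in KO-2, and its rank among the peaks of its own list was 22.5%, 34.2%, 69.7% and 36.1% in the same order. Both KO ranks lay above both WT ranks at this position, KO-2 by little over WT-2. A second peak of 1477 bp, from chr9:120050862 to 120052338, covered the whole CDS in WT-2 and had no counterpart in WT-1, KO-1 or KO-2. The share of the CDS under a peak was thus 0% in WT-1, 100% in WT-2 and 0% in both KO lists (two-sided exact permutation test, p = 1).

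The recurrent peak of *Cx3cr1* held no GGAC at all. None was found in the 842 bases covered by any of its peaks. Of 114899 windows as long as the 538 bases common to all lists, 84.4% held GGAC. GAAC was absent from these 538 bases as well (found in 85.0% of windows), AGAC occurred 2 times (found in 88.9%) and AAAC 1 time (found in 82.5%). The WT-2 peak over the CDS held 10 GGAC in 1477 bp, a number reached by 17.0% of 34839 windows of that length. The first and the last GGAC of its CDS were these.
*Cx3cr1*, CDS, chr9:120052059-120052082, minus strand: ttgcccttctGGACtcactacctc
*Cx3cr1*, CDS, chr9:120051320-120051343, minus strand: ggagcaggcaGGACagcattctga

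*Ccr1*, the receptor for CCL3 and related inflammatory chemokines, had its recurrent peak in the 5′-UTR. The gene lies on the minus strand of chr9:123962124-123968692, with the CDS of 1068 bp in exon 2 of 2. The peak lay on exon 1, from its first base, and was 309 bp wide in WT-1, 345 bp in KO-1 and 398 bp in KO-2, where it filled the exon. WT-2 had no peak there and had instead one of 550 bp at chr9:123964009-123964558, from the first base of exon 2 over the start codon to base 482 of the mRNA counted from the start codon. The share of the CDS under a peak was 0% in WT-1, 45.2% in WT-2 and 0% in both KO lists, so WT-2 alone differed. The peak scores were 147.34 in WT-1 and 194.22 in WT-2, compared with 1598.49 in KO-1 and 3100 in KO-2. The GGAC under the exon 1 peak of all 3 lists and those under the WT-2 peak are shown.
*Ccr1*, 5′-UTR, chr9:123968521-123968544, minus strand: tagtgaacttGGACcccaggaatt
*Ccr1*, CDS, chr9:123964422-123964445, minus strand: ttgactatggGGACtccactccat
*Ccr1*, CDS, chr9:123964376-123964399, minus strand: ctttggggctGGACtcctgccccc

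The 3 genes without a peak lie at chr9:124021972-124031689 on the plus strand (*Ccr3*), chr1:128588199-128592293 on the minus strand (*Cxcr4*) and chr7:16246743-16259540 on the minus strand (*C5ar1*), each with 2 exons. They were not without the motif. *Ccr3* held 8 GGAC in 3272 bases of mRNA, *Cxcr4* held 6 in 1805 bases and *C5ar1* held 9 in 2540 bases, or 2.44, 3.32 and 3.54 per kb. The median over all genes was 4.0 per kb and over genes with the CDS in one exon 2.90 per kb. Over the 6 genes with a peak, GGAC occurred 53 times in 12167 bases under a peak of any list (4.36 per kb) and 28 times in 10533 bases under none (2.66 per kb). The order was the same in *Ccr1*, *Ccr2*, *Ccrl2*, *Cx3cr1* and *C3ar1*, with 5.23 against 1.36 per kb in *C3ar1* and 2.16 against 2.05 per kb in *Ccr2*. In *Cmklr1* it was turned, with 4.64 per kb under a peak and 10.2 per kb in the 295 bases outside. In *Cx3cr1* all 10 GGAC counted under a peak came from the WT-2 peak over the CDS. The 842 bases of its recurrent region held none. Over the 6 genes, GGAC occurred at 5.37 per kb of CDS and 3.57 per kb of mRNA. Whether the share of CDS under the peaks enters the contrast between bases under a peak and under none was not tested.

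Peaks with an overlap of 1 bp or more were joined across lists into 11 regions on the 6 genes. A peak in all 4 lists was found in 4 of 11 regions, beside 18.1% of all 11970 regions on protein-coding genes. These were the coding region of *Ccr2*, the 3′-UTR region of *Cx3cr1*, and the regions of *Cmklr1* and *C3ar1*. Exon 1 of *Ccr1* had a peak in 3 lists and the coding region of *Ccrl2* in 2. A peak in 1 list only was found in 5 of 11 regions, beside 49.3% of all regions. Of these 5, 3 came from WT-2 (*Ccr1*, *Ccr2* and *Cx3cr1*) and 2 from KO-2 (*Ccr2* and *Ccrl2*).

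KO and WT BMDMs were next compared over the 9 genes, to ask whether peaks on these receptor mRNAs differed where *Mettl3* had been deleted. The genes with a peak numbered 5 in WT-1 and 6 in each of WT-2, KO-1 and KO-2, with a WT mean of 5.5 ± 0.707 and a KO mean of 6 ± 0 (SD, n = 2 each; two-sided exact permutation test, p = 1). The number of peaks was 6.5 ± 2.12 over the WT lists and 6.5 ± 0.707 over the KO lists (SD, n = 2 each; two-sided exact permutation test, p = 1). With 2 lists against 2, the 6 labellings cannot give a p below 0.333. The number of peaks differed more between the WT lists than between any WT list and any KO list. No gene was lost (a peak with both WT mice, none with either KO mouse), beside 3.84% of the 7052 genes, and none was gained, the reverse, beside 4.86%.

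The share of the coding bases of all 9 genes under a peak was 28.0% in WT-1 and 59.1% in WT-2, compared with 42.3% in KO-1 and 34.1% in KO-2. Both KO lists lay between the WT lists. The WT lists averaged 43.5% ± 22.0 and the KO lists 38.2% ± 5.83 (SD, n = 2 each), and the difference of -5.36 percentage points was smaller than the spread of the WT lists (two-sided exact permutation test, p = 1). Its sign depended on the lists and peaks used. The difference was 10.2 percentage points without WT-2 and -20.9 without WT-1. In the top-scored 50% of each list, with WT-2 kept, it was 3.77. Of the 6 genes with a peak over the CDS, none was covered more in both KO lists than in both WT lists, beside 17.8% of 5732 such genes, and none less, beside 5.86%. Of the bases under the peaks of these genes, 46.5% lay in the CDS in WT-1 and 58.7% in WT-2, compared with 57.0% in KO-1 and 43.6% in KO-2 (two-sided exact permutation test, p = 0.667), with the genotypes mixed.

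**Figure D2:**
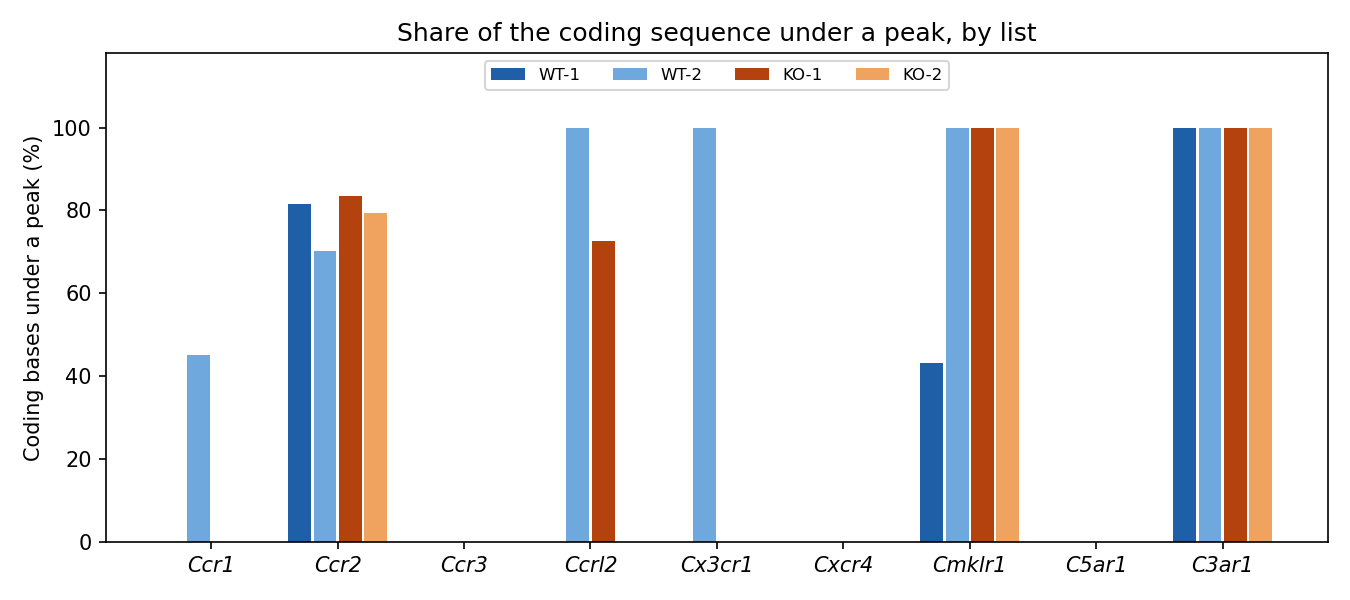
Bars give the percent of the coding bases of each receptor gene under a peak in WT-1 and WT-2, then KO-1 and KO-2, on an axis that starts at 0, with 1 bar per list and no bar at 0%. *C3ar1* stands at 100% in every list and *Ccr2* between 70.3% and 83.6%, while *Ccr1* and *Cx3cr1* have a bar in WT-2 alone.

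By the mean over the 4 lists, the genes with a peak in all lists stood in the order *C3ar1* (100%), *Cmklr1* (85.8%), *Ccr2* (78.7%), *Cx3cr1* (25%) and *Ccr1* (11.3%). *C3ar1* was above *Ccr2* in every list. *Cmklr1* and *Ccr2* did not differ beyond their spread, since the *Ccr2* values all lay inside the range of *Cmklr1*, and *Cx3cr1* and *Ccr1* were equal at 0% in 3 lists. The median of these 5 genes, 78.7%, stood beside 65.7% in 267 other genes with the CDS in one exon and a peak in all lists and 25.1% in 2142 further genes. A mean above 90% was found for 22.1% of the 267 genes and 3.17% of the 2142 genes. In exons of at least 2000 bp, the peaks of the receptor genes had a median width between 1133 and 1471.5 bp per list, and the other 2373 to 2523 peaks one between 555 and 645.5 bp. The nearest genes by coding coverage in the 4 lists, out of 772 with the CDS in one exon, were *Gm14698*, *Tnfaip8l3*, *Rrs1*, *Urgcp* and *Exo5*, at Euclidean distances between 26.5 and 38.2 percentage points from the median of the 6 receptor genes. The nearest, *Gm14698*, was covered at 34.5% in WT-1 and 100% in WT-2, compared with 100% in KO-1 and 32.4% in KO-2.

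The score was then used as a rank within its own list, from 0% for the lowest to 100% for the highest, with peaks of equal score at the middle of their ranks. By the highest-scored peak of the gene, *Ccr1* stood at 14.4% in WT-1 and 14.6% in WT-2, compared with 73.0% in KO-1 and 89.9% in KO-2. Both KO values lay far above both WT values, and the WT-2 value belongs to another peak position than the other 3. *Ccr2* stood at 81.4%, 77.3%, 91.6% and 89.9% in the same order, again with no overlap. *Cx3cr1* stood at 22.5%, 48.3%, 69.7% and 36.1%, and *Cmklr1* at 78.5%, 92.8%, 91.6% and 78.2%, with overlapping genotypes. The WT-2 value of *Cx3cr1* belongs to the peak over the CDS. At its recurrent 3′-UTR peak WT-2 stood at 34.2%, and there the genotypes did not overlap. By the highest-scored peak of these 4 genes, the KO lists were both higher in 2 and both lower in 0, beside 21.2% and 13.4% of the 1856 genes that could be ranked. Many genes of these lists were thus separated by genotype in the same way. *C3ar1* was left out because all its scores were 3100. *Ccrl2* had no peak in WT-1 and stood at 44.9% in WT-2, with 39.5% (KO-1) and 0.067% (KO-2) in the KO lists.

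**Figure D3:**
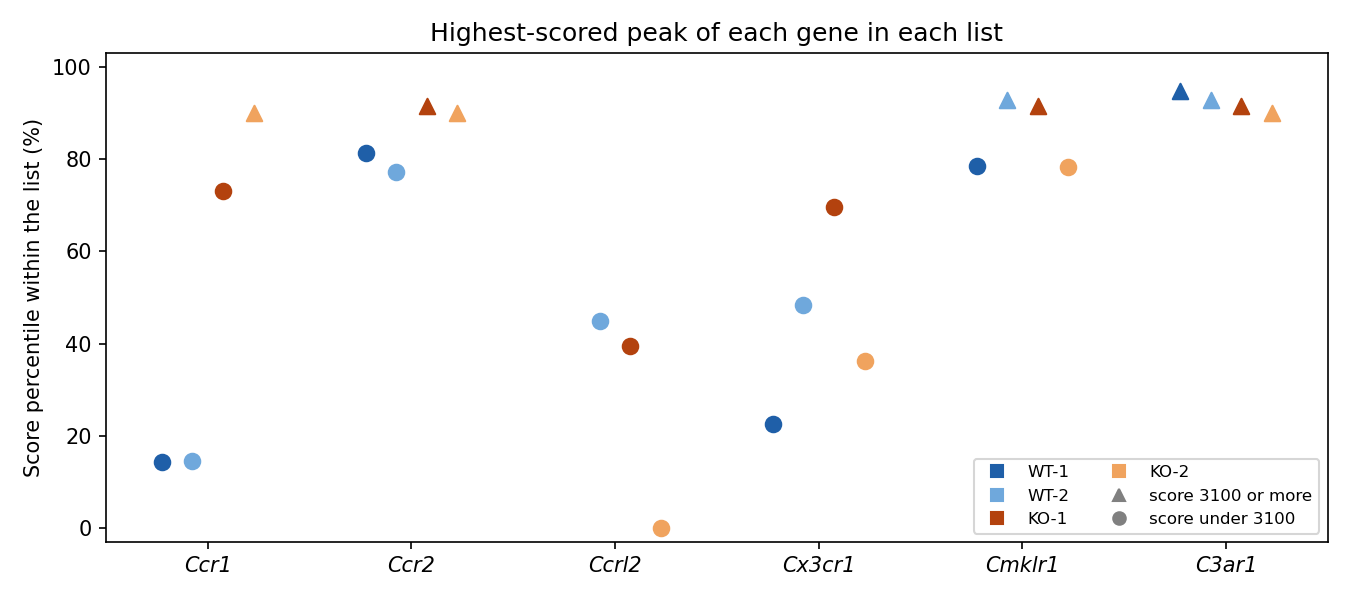
Points give the percentile of the score of the highest-scored peak of each gene among the peaks of the same list (0 to 100%), coloured by list, with triangles for scores of 3100 or more. The KO points of *Ccr1* (73.0% and 89.9%) and *Ccr2* (91.6% and 89.9%) lie above the WT points of the same gene, while those of *Cx3cr1* and *Cmklr1* overlap with them, where the WT-2 point of *Cx3cr1* (48.3%) is the peak over the CDS and not the recurrent 3′-UTR peak (34.2%).

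The pathway around the 9 genes was read from lists of 28 other chemoattractant receptors, 25 ligands and 32 signalling genes. Of the other receptors, 4 had a peak in WT-1 and 6 in WT-2, compared with 5 in KO-1 and 4 in KO-2, and 10 in any list. Of all 21866 protein-coding genes, 4219, 4377, 4234 and 4485 had a peak in the same order, and 7052 in any list. *Ptafr*, the receptor for platelet-activating factor, stood at 84.6%, 92.8%, 77.7% and 89.9% in WT-1 and WT-2, then KO-1 and KO-2. *Ccr9*, a homing receptor of the gut, was the 1 lost gene of this list, at 81.3% in WT-1 and 46.6% in WT-2. *C5ar2*, the second receptor for C5a, was the 1 gained gene, at 50.6% in KO-1 and 4.50% in KO-2, while *C5ar1* had no peak in any list. *Cxcr6* had a peak in WT-1 (56.4%) and KO-1 (8.27%).

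The ligands had few peaks. None had a peak in WT-1 or KO-1, 2 had one in WT-2 and 3 in KO-2. *Cxcl2*, a neutrophil attractant, had a peak in WT-2 (21.7%) and KO-2 (46.1%), *Ccl4* in WT-2 (24.3%), and *Cxcl10* (55.6%) and *Cxcl16* (7.89%) in KO-2. Among the ligands of the 9 receptors, *Ccl2* for CCR2, *Ccl3* for CCR1, *Cxcl12* for CXCR4, *Cx3cl1* for CX3CR1, *Rarres2* for chemerin and *C3* for C3a, had no peak in any list. No ligand was lost or gained.

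Downstream of the receptors, peaks were found on 12 of 32 signalling genes in WT-1, 14 in WT-2 and 12 in each KO list, with 6 genes in all 4 lists and none lost or gained. *Pik3cg*, the PI3 kinase subunit that responds to G protein βγ subunits, stood at 74.9%, 86.3%, 81.2% and 89.9% in WT-1 and WT-2, then KO-1 and KO-2. Its adaptor *Pik3r5* stood at 55.8%, 80.5%, 6.15% and 72.2%. *Gna13*, a Gα subunit, stood at 64.7%, 92.8%, 77.4% and 89.9%, and *Elmo1*, a partner of DOCK proteins in Rac activation, at 58.8%, 85.4%, 52.7% and 50.1%. *Gnai3* and *Grk3* also had a peak in all lists. Only *Elmo1* among the 4 genes with values had both KO lists below both WT lists, beside 13.4% of the 1856 genes that could be ranked.

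**Figure D4:**
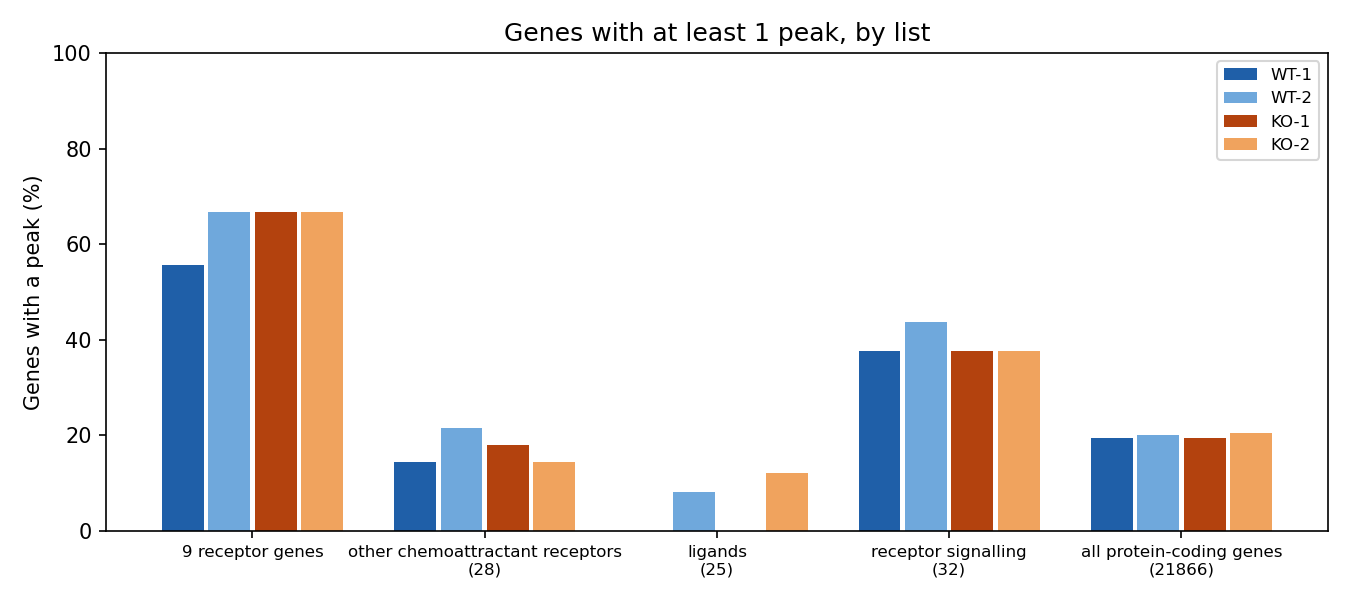
Bars give the percent of genes with at least 1 peak in WT-1 and WT-2, then KO-1 and KO-2 for the 9 receptor genes, 28 other chemoattractant receptors, 25 ligands, 32 signalling genes and all 21866 protein-coding genes, on an axis from 0 to 100%. The bars of the 9 genes stand for 5, 6, 6 and 6 genes, those of the ligands for 0, 2, 0 and 3 genes.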

How the data were processed

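The authors sequenced the IP and the input RNA of every mouse and deposited 1 peak list per mouse, not pooled, with a score for each peak from their caller. The submitters' processing notes name cutadapt 1.9.3, HISAT2 2.0.4 and mm10, which is GRCm38. The peak names have the form of MACS, and the settings are not given in the sources used here. Scores ranked peaks within a list. A list holds no counts, so the depth and its precision are unknown. Starts were shifted to count from 1. Each peak went to the protein-coding gene of GENCODE M21 with the largest exon overlap on its strand. Positions are on the longest coding transcript. Motifs were searched on the transcript strand only, and the run of 4 codons in frame only.

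Groups followed the sample titles, and differences were tested by two-sided exact permutation over 6 labellings. Peaks of separate mice were compared, and a p-value is the share of the labellings with a difference at least as large. The genes, lists and rules for naming were chosen with earlier results of these data known. All 9 genes were named, and of each pathway list up to 4 genes with a peak in most lists, then by mean percentile, plus those lost or gained. One gene that this would name is not reported here. The ranks within lists, the codon search and the assignment to exons of coding transcripts were chosen after seeing the data. One ligand, *Cxcl11*, was not matched. Alternatives were the top-scored 50% of each list, 6159 top peaks per list, peaks cut to 300 bp, other assignments, transcripts, call rules and overlaps, a replicate block, and each list left out. In 4 simulated lists, peaks of 300 bp were planted inside the longest coding exon of 2000 genes, and 99.5% of presences and 100% of calls were recovered. This checked the assignment of such peaks to genes alone, not of wider peaks or of peaks in a UTR. Python 3.11.15, numpy 2.4.6 and matplotlib 3.10.9 were used.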

Additional observations from a re-analysis of the deposited data

How the results depend on the processing

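Differences between KO and WT were judged by direction alone, since no p below 0.333 is possible, counts by a change within 1.5 times, and the share in the CDS by the spread between replicates. By these measures 76 of 90 recomputed values held, 12 moved and 2 turned in sign. In the top-scored 50% of each list, a smaller set by construction, the KO minus WT difference was 1.5 genes, 1.5 peaks and 3.77 percentage points of coding bases (two-sided exact permutation test, p = 0.333 for each), 3 genes had a peak in all lists, 1 gene was gained (*Ccr1*), and 1 gene in place of 2 had a higher score rank in both KO lists. With an equal number of peaks per list, the difference was 0 genes and -0.5 peaks. Leaving out each list in turn gave differences of 0 to 1 genes, -1.5 to 1.5 peaks and -20.9 to 10.2 percentage points of coding bases, and 0 to 1 gained genes. The lowest difference in coding bases came without WT replicate 1 and the highest, with 1 gained gene (*Ccrl2*), without WT replicate 2. The KO-1 and KO-2 peaks of *Ccrl2* do not overlap, and the KO-2 score of 50.72 was near the lowest of its list. No gene was lost under any of these settings. With 1 list left in a genotype there was no test.

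With the replicate number as a block, the differences were 0.5 genes, 0 peaks and -5.36 percentage points (exact sign-flip permutation, p = 1 for each). The numbers share no stated origin, and the correlation of WT-1 minus WT-2 with KO-1 minus KO-2 was -0.0030 over 7052 genes. Depth could not be assessed, since the lists hold no counts.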
